A study of Homo sapiens with 6 samples.

Results

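The genes described here make cholesterol, sense it, and move it within and out of the cell. They are 34 of the 39012 rows of the deposited expression table, picked by gene symbol and by role: 20 synthesis genes in pathway order, 7 regulators and 7 genes of sterol handling. RNA was sequenced from Jurkat cells, an established human T cell leukaemia line, in 6 libraries. In 3 of them the cells carried an empty vector (EV), and in the other 3 they stably overexpressed SCML4, a protein of the Polycomb family. For 6 h before harvest every culture received PMA (100 ng/ml) and ionomycin (1 μM), a drug pair that mimics T cell receptor signalling, so that no resting cells are compared. Cells were grown with fetal bovine serum, which carries lipoprotein cholesterol. The labels do not say which promoter drives SCML4, whether each line is a clone or a pool, or whether replicates are separate cultures. A p-value here therefore speaks only of library-to-library spread, and that spread may be technical.

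Cells build cholesterol from acetyl-CoA through mevalonate, squalene and lanosterol, and a side branch supplies isoprenoids for other products. SREBP transcription factors, escorted by SCAP, leave the endoplasmic reticulum when sterols are scarce and switch on these genes, while INSIG proteins hold them back when sterols are plentiful. Oxysterols activate the liver X receptors, which switch on genes of cholesterol efflux. In T cells this programme is known for supplying membrane to cells that have been activated.

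Levels are given as CPM, reads per 1000000 reads of the library, worked out from the deposited FPKM. Libraries held 8953671 to 10336597 reads. CPM is not scaled by gene length, so levels are not compared between genes. Differences are SCML4 minus EV on the log2(FPKM + 1) scale, ± is the SD over the 3 libraries of a group, and tests are limma-trend with Benjamini-Hochberg adjustment over all 15357 genes tested. The SCML4 gene itself had 0.727, 0.223 and 0.103 CPM (7, 2 and 1 reads) in EV replicates 1 to 3. In SCML4 replicates 1 to 3 it had 62.9, 63.6 and 56.5 CPM. T cell markers stood high (CD3E at 583 to 712 CPM). LYZ, EPCAM, KRT18, KRT19 and HBB, of other cell types, were listed at 0 in all 6 libraries, but so was the widely used enzyme CYP51A1, so a listed 0 is not read as absence. CD79A, known as a B cell gene, was present at 21.5 to 33.3 CPM. EV replicate 1 stood apart: limma gave it a library weight of 0.32, against 0.75 to 2.19 for the others. Its deviations correlated with GC content across genes at a Spearman rho of -0.46, against 0.036 to 0.26. The median of each gene group is therefore also given without it.

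No gene of the pathway passed the test between the groups. Of all genes tested, 0 of 15357 (0.0%) had an adjusted p under 0.05. The overexpressed SCML4 gene was itself among those not called, so the lack of a call does not show the lack of a difference. Before adjustment 781 genes (5.09%) had a p under 0.05, and limma-voom on the recovered reads called 1 gene, SCML4 itself. No member was called under any of the 21 alternatives. Of the members, 33 passed the filter on low values, and the smallest adjusted p among them was 0.905. An unadjusted p under 0.05 was reached by 3 of the 33: ACAT2, INSIG1 and NR1H2. A difference above 0 was seen in 27 of the 33, against 51.7% of all genes tested. The SCML4 libraries all lay above the EV libraries in 5 of the 33 (ACAT2, SC5D, INSIG1, SREBF1 and NR1H2), against 6.02% of all genes. They all lay below in 0 of the 33, against 5.27%. These members share libraries, and genes under 1 regulator are not independent replicates.

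**Figure D1:**
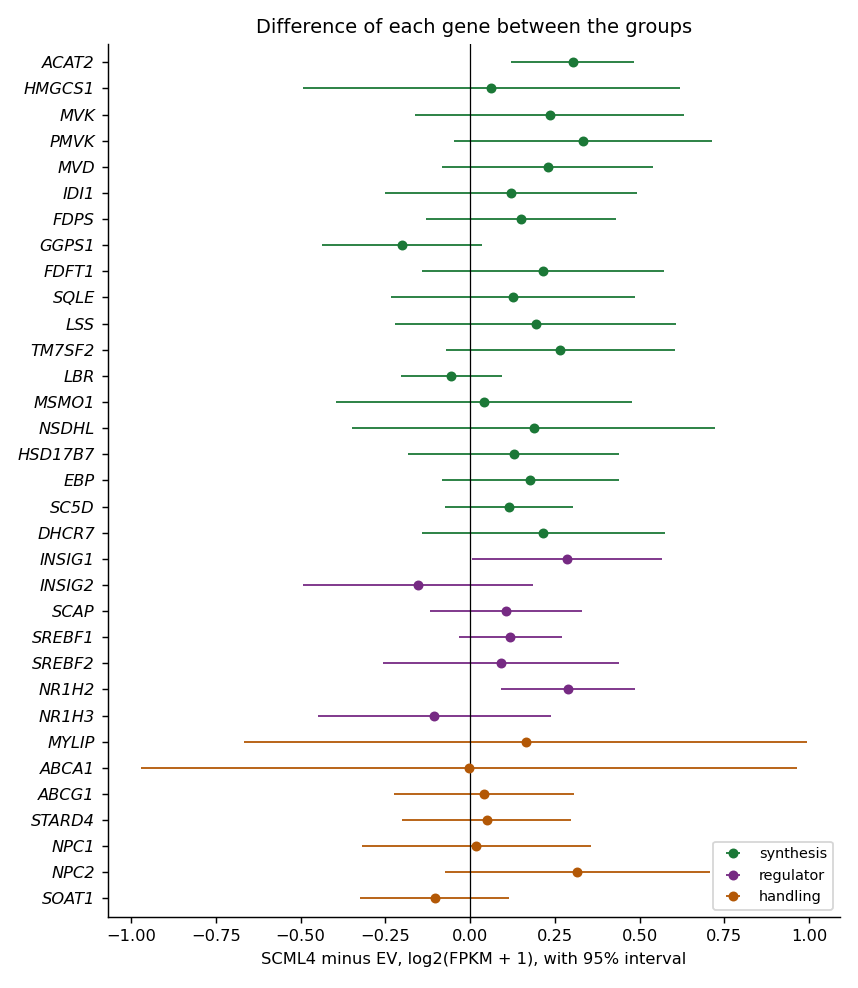
Difference between the groups (SCML4 minus EV, log2(FPKM + 1), horizontal axis) for each of the 33 members tested, with 95% intervals from limma-trend, coloured by role. Most points lie right of 0, the intervals of ACAT2, INSIG1 and NR1H2 lie wholly above 0, and no gene passed after adjustment.

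Among the synthesis genes, 17 of the 19 tested had positive differences (51.7% of all genes), with a median of 0.18. The leading pattern was a high level in 1 SCML4 library. SCML4 replicate 1 held the highest value of the 6 libraries for 14 of the 19, against 15.5% of all genes tested. EV replicate 1 held the lowest for 12 of the 19, against 28% of all genes. The sum over the synthesis genes was 1192, 1249 and 1285 CPM in EV and 1545, 1312 and 1187 CPM in SCML4. Thus SCML4 replicate 1 was well above every EV library, while SCML4 replicate 3 was about level with EV replicate 1, the lowest EV library.

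**Figure D2:**
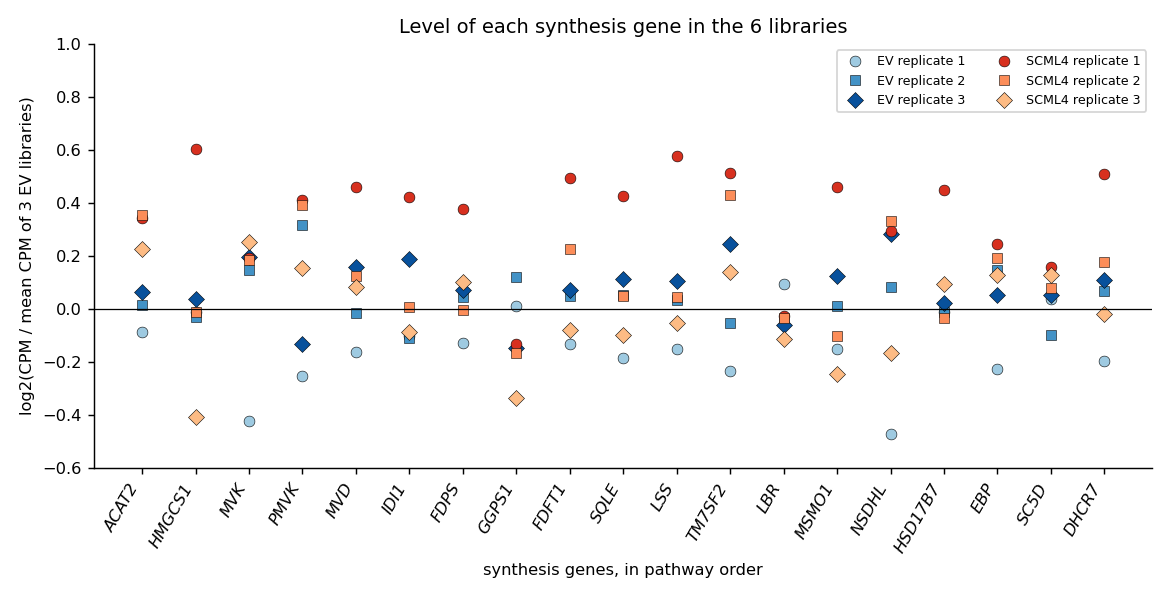
Level of each of the 19 synthesis genes tested in each library, as log2 of its CPM over the mean CPM of the 3 EV libraries (vertical axis), in pathway order (horizontal axis). The darkest red circles, SCML4 replicate 1, are the highest points for 14 genes, and the palest blue circles, EV replicate 1, are the lowest for 12.

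The first steps turn acetyl-CoA into mevalonate. ACAT2, a thiolase that joins acetyl-CoA units, stood at 25.3, 27.2 and 28.1 CPM in EV replicates 1 to 3 and at 34.1, 34.3 and 31.5 CPM in SCML4 replicates 1 to 3. All SCML4 libraries were above all EV libraries, and unlike most of the pathway the SCML4 replicates lay close together. Means were 26.9 ± 1.41 and 33.3 ± 1.58 CPM, a difference of 0.30 (SE 0.075, unadjusted p = 0.00597, adjusted p = 0.905). It was 0.26 without EV replicate 1 and 0.29 without SCML4 replicate 1. The adjusted p ranged from 0.381 to 0.99 over the alternatives. ACAT2 overlaps TCP1 and SOD2 on the opposite strand in GENCODE, and whether counting used strand is not given. For TCP1 itself the EV libraries averaged 175 ± 21.7 CPM and the SCML4 libraries 177 ± 24.2 CPM, with overlapping groups. SOD2 had 127 ± 8.04 CPM in EV and 117 ± 11.5 CPM in SCML4, also with overlap.

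HMGCS1, which makes HMG-CoA and is a classic SREBP target, had a wide spread in SCML4. It stood at 54.1, 53.3 and 55.9 CPM in EV and at 82.6, 54.1 and 41.1 CPM in SCML4. The EV libraries were nearly equal, while the SCML4 libraries lay above, within and below their range, with a 1.74-fold gap between SCML4 replicate 1 and the mean of the other two. The difference was 0.063 with a 95% interval of -0.49 to 0.62, and it was -0.20 without SCML4 replicate 1. The spread within SCML4 (59.3 ± 21.2 CPM) exceeded the gap between the group means.

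The next enzymes phosphorylate mevalonate and turn it into the activated isoprene unit. PMVK, phosphomevalonate kinase, had 11.2, 16.6 and 12.2 CPM in EV and 17.8, 17.5 and 14.9 CPM in SCML4. The groups overlapped through EV replicate 2, and the difference was 0.33 (SE 0.16, adjusted p = 0.905). It was 0.22 without EV replicate 1 and 0.50 without EV replicate 2. MVK, mevalonate kinase, had 10.3 CPM in EV replicate 1 and between 15.3 and 16.4 CPM in the other 5 libraries. Its difference of 0.23 became 0.038 without that library. MVD, which decarboxylates mevalonate pyrophosphate, had 35.9, 39.8 and 44.9 CPM in EV and 55.4, 43.8 and 42.7 CPM in SCML4. Only SCML4 replicate 1 was above every EV library, and the difference of 0.23 became 0.15 without EV replicate 1 and 0.11 without SCML4 replicate 1. IDI1, the isomerase, had 99.3 CPM in SCML4 replicate 1 and 68.7 to 84.5 CPM in the other 5 libraries.

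Farnesyl pyrophosphate is the branch point. FDPS, its synthase, stood at 22.6 to 26.0 CPM in EV and at 32.1, 24.7 and 26.6 CPM in SCML4. Its near copy FDPSP1 was listed at a similar level, 25.3 ± 5.52 CPM in EV and 30.3 ± 7.09 in SCML4, so how reads were split between the 2 copies is uncertain. GGPS1, which makes geranylgeranyl pyrophosphate for protein prenylation, was one of the 2 synthesis genes with a negative difference. It had 28, 30.2 and 25.1 CPM in EV and 25.4, 24.8 and 22.0 CPM in SCML4. EV replicate 3 fell among the SCML4 libraries, and the difference was -0.20 (SE 0.098, adjusted p = 0.905). With 1 library left out it lay between -0.27 (without EV replicate 3) and -0.14 (without EV replicate 2). GGPS1 overlaps exons of ARID4B on the opposite strand in GENCODE. ARID4B had 104 ± 7.31 CPM in EV and 96.7 ± 5.01 CPM in SCML4, with overlapping groups. On the same strand GGPS1 overlaps exons of TBCE, so how reads were split between GGPS1 and TBCE is also uncertain. TBCE is listed in 2 rows: the first had 8.92 ± 1.75 CPM in EV and 6.41 ± 0.30 CPM in SCML4 without overlap, the second 5.83 ± 0.85 and 6.69 ± 2.19 CPM with overlap. FDFT1, squalene synthase, which commits farnesyl units to sterols, had 227 ± 17.4 CPM in EV and 319, 265 and 215 CPM in SCML4.

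SQLE, squalene epoxidase, had 54.5, 64.3 and 66.9 CPM in EV and 83.2, 64.0 and 57.9 CPM in SCML4. LSS, which closes squalene epoxide into lanosterol, had 75.2, 85.4 and 89.9 CPM in EV and 124, 86.2 and 80.5 CPM in SCML4. In both genes SCML4 replicates 2 and 3 lay within the EV range and SCML4 replicate 1 lay far above it. For LSS the mean of SCML4 replicates 2 and 3 was 0.999 times the EV mean, and its difference of 0.19 became 0.0010 without SCML4 replicate 1 and 0.12 without EV replicate 1. For SQLE the difference of 0.13 became -0.019 and 0.041 in the same order. CYP51A1, the lanosterol demethylase, was listed at 0 in all 6 libraries. The annotation overlaps it with 2 readthrough genes on the same strand, and the zeros are not read as lack of expression.

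After lanosterol, TM7SF2, a sterol reductase, had 11.1, 12.6 and 15.5 CPM in EV and 18.6, 17.6 and 14.4 CPM in SCML4. Here both SCML4 replicates 1 and 2 were above every EV library, and the difference was 0.27 (SE 0.14, adjusted p = 0.905). TM7SF2 overlaps VPS51 on the same strand, which had 92.4 ± 13.4 CPM in EV and 104 ± 6.07 CPM in SCML4. LBR, a nuclear envelope protein with the same reductase activity, differed little: it had 366 ± 21.3 CPM in EV and 352 ± 11.6 CPM in SCML4, a difference of -0.055 with a 95% interval of -0.20 to 0.093. The paired reductases thus had differences of opposite sign, and that contrast was not tested. MSMO1, a sterol methyl oxidase, had 36.1, 40.5 and 43.7 CPM in EV and 55.2, 37.3 and 33.8 CPM in SCML4, so it resembled HMGCS1 in having SCML4 libraries on both sides of the EV range. NSDHL, a sterol dehydrogenase, ranged from 7.58 to 13.3 CPM and HSD17B7, a sterol ketone reductase, from 7.26 to 10.1 CPM, without separation of the groups.

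The last steps give cholesterol. EBP, the sterol isomerase, had 27.9 ± 3.62 CPM in EV and 31.8 ± 1.31 CPM in SCML4, and its lowest library was EV replicate 1 at 23.9 CPM. Its difference of 0.18 became 0.081 without that library. SC5D, the sterol desaturase, had 62, 56.4 and 62.6 CPM in EV and 67.4, 63.8 and 66.0 CPM in SCML4. Its groups did not overlap, but the step was small, 0.11 (SE 0.079, adjusted p = 0.913). DHCR7, which reduces the final double bond in one route, had 60.5, 72.6 and 74.8 CPM in EV and 98.6, 78.4 and 68.5 CPM in SCML4. It followed the common pattern of a high SCML4 replicate 1, with a difference of 0.22 that became 0.080 without that library and 0.13 without EV replicate 1.

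**Figure D3:**
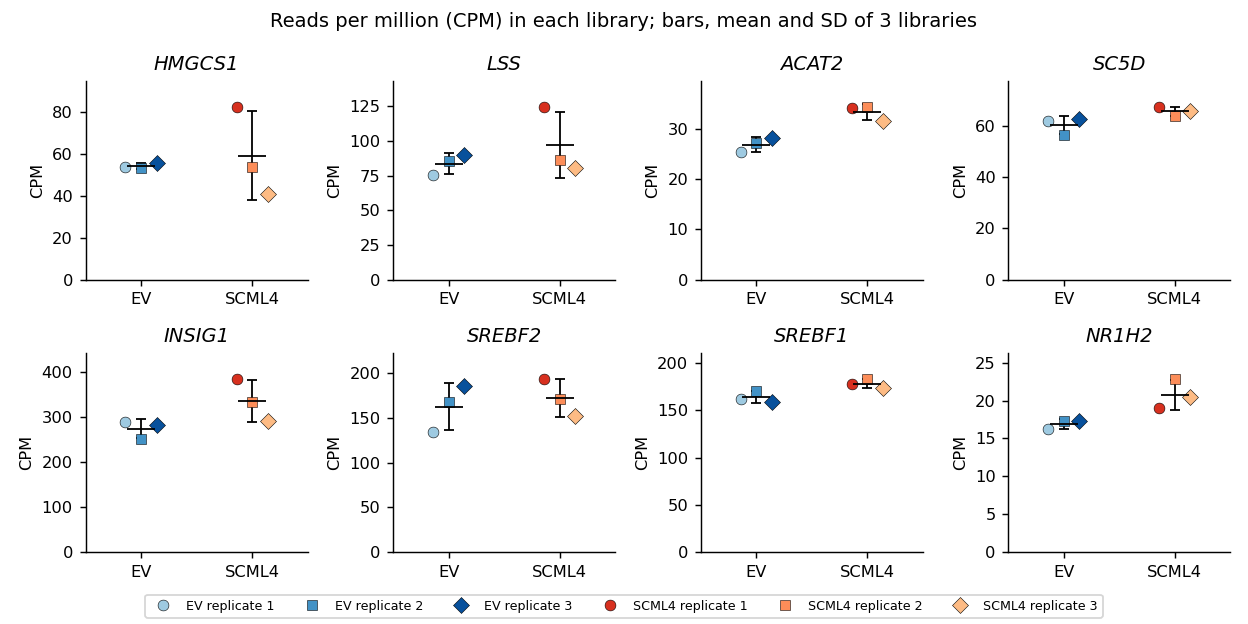
CPM (vertical axis, from 0) of 8 members in each library; horizontal bars are group means and error bars SD of 3 libraries. HMGCS1 and LSS stand high in SCML4 replicate 1 alone, whereas the SCML4 libraries of ACAT2, SC5D, INSIG1, SREBF1 and NR1H2 all lie above the EV libraries.

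The gap between SCML4 replicate 1 and its fellow replicates varied along the pathway. Over the 19 synthesis genes the median ratio of SCML4 replicate 1 to the mean of SCML4 replicates 2 and 3 was 1.25, from 0.983 for MVK to 1.74 for HMGCS1. It was 1.55 for MSMO1, 1.49 for LSS, 1.38 for IDI1 and 1.36 for SQLE. At the other end stood ACAT2 and SC5D at 1.04 and LBR at 1.03. For the regulators the median ratio was 0.996, with INSIG1 highest at 1.23. Of the 5 members whose groups stood apart, INSIG1 alone had a ratio above 1.1.

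Against the EV libraries, each SCML4 library can be read separately. SCML4 replicate 1 was above every EV library in 16 of the 19 synthesis genes, against 24.1% of all genes tested. SCML4 replicate 2 was so in 8 of the 19, against 22.0%, and SCML4 replicate 3 in 5 of the 19, against 27.8%. The median over synthesis genes of the gap to the EV mean was 0.38 in SCML4 replicate 1, 0.075 in SCML4 replicate 2 and -0.011 in SCML4 replicate 3. The 3 libraries did not agree on the size of the gap, and for SCML4 replicate 3 the count was near that of all genes. The SCML4 gene itself stood at 56.5 to 63.6 CPM in the same libraries. The GC correlation of SCML4 replicate 1 (0.147) and its total of 9064152 reads lay within the range of the other libraries. What made this library differ in these genes was not tested.

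Leaving out EV replicate 1 or SCML4 replicate 1 narrowed the difference without turning the median. Without EV replicate 1, 15 of the 19 synthesis genes had positive differences (51.3% of all genes), with a median of 0.093. Without SCML4 replicate 1 the count was 13 of the 19 (52.9% of all genes) and the median 0.077. The 2 libraries were not left out together. In EV replicates 2 and 3 the median deviation of the synthesis genes from the mean of the 6 libraries was -0.040 and 0.00060. In SCML4 replicates 2 and 3 it was 0.015 and -0.083, so without both libraries the medians overlapped. With each library corrected for GC content the median difference was 0.15, with 18 of the 19 positive.

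**Figure D4:**
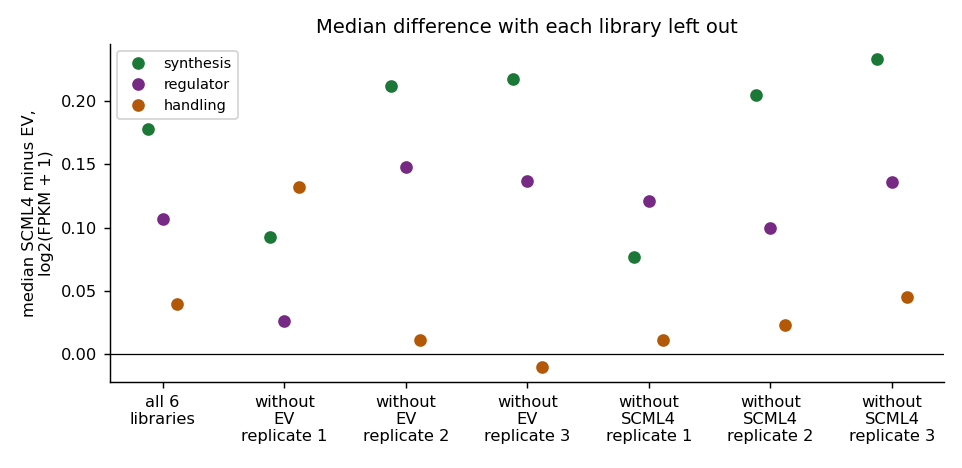
Median difference (SCML4 minus EV, log2(FPKM + 1), vertical axis) over the synthesis, regulator and handling genes tested, with all 6 libraries and with each library left out in turn (horizontal axis). The synthesis median is 0.18 with all libraries and lowest, at 0.077 and 0.093, without SCML4 replicate 1 and without EV replicate 1.

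The upstream sequences of 4 synthesis genes that were high in the same library, and of 3 regulators, are shown for comparison, since SREBP works with NF-Y at such promoters. Each is the stretch from 250 to 111 bases before the RefSeq start on GRCh38.p14, 5′ to 3′ on the gene's strand. Capitals mark the CCAAT box bound by NF-Y (CCAAT, or ATTGG on the other strand). They also mark TCACNCCAC, a form of the sterol regulatory element, searched on both strands too. HMGCS1, LSS, MSMO1 and MVD are picked from the synthesis genes with a high SCML4 replicate 1 and do not stand for all of them. INSIG1 and INSIG2 are the paired retention proteins, and SREBF2 encodes the main SREBP of cholesterol synthesis.
HMGCS1 (chr5:43313523-43313662, minus strand): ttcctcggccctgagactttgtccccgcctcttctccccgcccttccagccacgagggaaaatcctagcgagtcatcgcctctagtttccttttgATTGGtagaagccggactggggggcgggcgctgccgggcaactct
LSS (chr21:46228885-46229024, minus strand): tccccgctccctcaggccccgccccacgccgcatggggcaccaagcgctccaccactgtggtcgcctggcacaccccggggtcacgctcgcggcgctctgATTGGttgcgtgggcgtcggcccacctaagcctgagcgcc
MSMO1 (chr4:165327419-165327558, plus strand): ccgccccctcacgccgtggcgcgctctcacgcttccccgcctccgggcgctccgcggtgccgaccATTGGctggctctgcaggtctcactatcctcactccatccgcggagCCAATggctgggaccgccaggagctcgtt
MVD (chr16:88663202-88663341, minus strand): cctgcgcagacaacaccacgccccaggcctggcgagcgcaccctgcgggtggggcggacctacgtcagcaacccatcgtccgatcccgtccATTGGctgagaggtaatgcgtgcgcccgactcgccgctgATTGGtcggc
INSIG1 (chr7:155297628-155297767, plus strand): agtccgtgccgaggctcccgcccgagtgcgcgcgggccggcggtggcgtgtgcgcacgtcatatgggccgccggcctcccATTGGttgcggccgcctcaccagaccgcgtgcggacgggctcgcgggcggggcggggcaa
INSIG2 (chr2:118088221-118088360, plus strand): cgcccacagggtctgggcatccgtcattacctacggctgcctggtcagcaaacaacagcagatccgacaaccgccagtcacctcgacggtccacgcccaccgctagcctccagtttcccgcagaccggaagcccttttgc
SREBF2 (chr22:41832855-41832994, plus strand): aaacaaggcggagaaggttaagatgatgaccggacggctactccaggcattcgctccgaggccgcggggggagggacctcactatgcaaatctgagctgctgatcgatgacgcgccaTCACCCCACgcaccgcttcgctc

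In the 250 bases before the start, a CCAAT box was found in 12 of the 17 synthesis genes with an entry in the promoter table, 2 of the 7 regulators and 4 of the 6 handling genes, against 33.0% of 27305 promoters. The synthesis genes without one were IDI1, PMVK, GGPS1, CYP51A1 and LBR. IDI1, whose SCML4 replicate 1 stood further above the other two than that of MVD, is one of these. DHCR7 and HSD17B7 also had a higher such ratio (1.34 each) than MVD (1.28). Their CCAAT boxes lie outside the stretch printed for the other genes. Whether the box goes with a high SCML4 replicate 1 was not tested. The 2 regulators were INSIG1 and SREBF2. INSIG2 held none in this window. The GC box GGGCGG, bound by Sp1, was found in 14 of the 17, 6 of the 7 and 6 of the 6, against 42.3% of all promoters. TCACNCCAC was found in SREBF2 alone among the members, as TCACCCCAC starting 133 bases before the start, against 0.875% of all promoters. A match is a match of letters only. Other forms of the sterol regulatory element were not searched, so a gene without TCACNCCAC is not shown to lack the element. The search ended at the start site, and the printed stretches end short of it.

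Among the regulators, INSIG1 and NR1H2 had the clearest gaps, while the SREBP genes themselves differed little. INSIG1, which retains SCAP and SREBP in the endoplasmic reticulum and is itself an SREBP target, had 289, 250 and 282 CPM in EV and 384, 333 and 290 CPM in SCML4. The groups did not overlap, although EV replicate 1 and SCML4 replicate 3 were nearly equal. The difference was 0.29 (SE 0.12, unadjusted p = 0.0466, adjusted p = 0.905), 0.33 without EV replicate 1 and 0.18 without SCML4 replicate 1. INSIG1-DT, the noncoding gene that starts beside INSIG1 on the other strand and was chosen after its values were seen, had 19.7, 18.7 and 17.8 CPM in EV and 24.1, 25.8 and 25.5 CPM in SCML4. There the SCML4 libraries lay close together, with a difference of 0.41 (SE 0.075, adjusted p = 0.793). INSIG2, the paralog that is not driven by SREBP in the same way, had 49.3, 36.8 and 35.8 CPM in EV and 32.4, 38.4 and 37.6 CPM in SCML4. EV replicate 1 was the highest and SCML4 replicate 1 the lowest, the reverse of the synthesis genes, and the difference of -0.15 became -0.0100 without EV replicate 1.

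SCAP, the escort of SREBP, had 87.9, 106 and 103 CPM in EV and 103, 107 and 110 CPM in SCML4. Its low library was EV replicate 1, and the difference of 0.11 became 0.027 without it. SREBF2, which encodes SREBP-2, had 134, 168 and 185 CPM in EV and 193, 172 and 152 CPM in SCML4. The groups overlapped widely, and the difference of 0.091 turned to -0.041 without EV replicate 1. SREBF1, which encodes SREBP-1 and is switched on by liver X receptors, had 162, 171 and 159 CPM in EV and 178, 183 and 174 CPM in SCML4. All 3 SCML4 libraries were higher by a small step, 0.12 (SE 0.063, adjusted p = 0.905), and with GC correction the difference was 0.025.

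The liver X receptors differed in sign. NR1H2, the widely expressed form, had 16.2, 17.3 and 17.4 CPM in EV and 19, 22.8 and 20.4 CPM in SCML4. The groups did not overlap, with a difference of 0.29 (SE 0.083, unadjusted p = 0.0115, adjusted p = 0.905). It was 0.26 without EV replicate 1, 0.35 without SCML4 replicate 1 and 0.19 (SE 0.12) with GC correction. NR1H3, the form best known from liver and macrophages, had 6.33, 5.24 and 7.85 CPM in EV and 6.07, 5.90 and 5.81 CPM in SCML4. The SCML4 libraries lay inside the EV range, with a difference of -0.11 (95% interval -0.45 to 0.24). Over the 7 regulators the median difference was 0.11, with 5 positive (51.7% of all genes), and it was 0.027 without EV replicate 1.

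Among the efflux and other handling genes, the groups stood apart in 0 of the 7. Of all genes tested, 6.02% had SCML4 higher without overlap and 5.27% had it lower. ABCG1, a cholesterol exporter switched on by liver X receptors, had 47.0, 39.6 and 37.6 CPM in EV and 38.6, 43.4 and 45.5 CPM in SCML4. The groups overlapped, and the difference was 0.040 (95% interval -0.23 to 0.30). It was 0.13 without EV replicate 1, 0.11 without SCML4 replicate 1 and -0.024 without EV replicate 3. ABCA1, the other exporter, had 6, 0 and 6 reads in EV and 0, 7 and 5 reads in SCML4, where a count of 0 allows up to 3 reads. MYLIP, a liver X receptor target that marks lipoprotein receptors for degradation, had 1.14, 1.34 and 0.826 CPM in EV and 1.54, 1.74 and 0.67 CPM in SCML4. Neither ABCA1 nor MYLIP was deep enough to show a difference: the 95% intervals were -0.97 to 0.96 and -0.67 to 0.99.

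NPC2, which carries cholesterol out of lysosomes, had 7.48, 5.58 and 4.75 CPM in EV and 6.84, 7.45 and 7.59 CPM in SCML4. The overlap came from EV replicate 1 alone, and without that library the groups stood apart with a difference of 0.49 (SE 0.095, adjusted p = 0.552), against 0.32 (adjusted p = 0.905) with all 6. Without EV replicate 1, SCML4 was higher without overlap in 1781 of all 15357 genes tested, against 925 with all 6 libraries. NPC1, the membrane partner of NPC2, ranged from 28.4 to 38.8 CPM in EV and from 30.9 to 39.3 CPM in SCML4, with no such gap. STARD4, a sterol carrier and SREBP target, had 70.7, 73.4 and 61.1 CPM in EV and 77.7, 70.1 and 64.4 CPM in SCML4. SCML4 replicate 1 was again the highest library, by a small margin. SOAT1, which esterifies cholesterol for storage, had 113, 100 and 92.0 CPM in EV and 93.3, 97.4 and 92.0 CPM in SCML4. Its highest library was EV replicate 1, and the difference of -0.10 became -0.028 without it. The handling genes had a median difference of 0.040, with 5 of the 7 positive (51.7% of all genes). It was 0.13 without EV replicate 1 and -0.0096 without EV replicate 3.

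**Figure D5:**
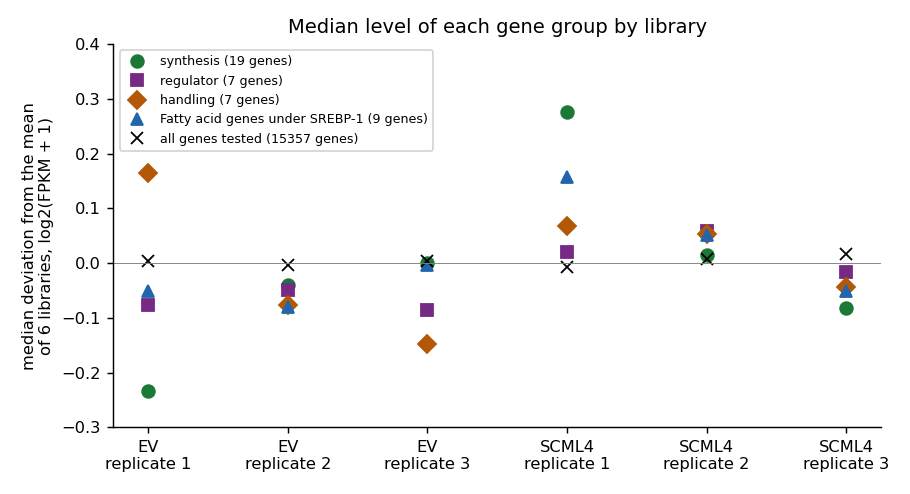
Median over the genes of each group of the deviation of a library from the mean of the 6 libraries (log2(FPKM + 1), vertical axis), by library (horizontal axis). Synthesis genes stand at -0.23 in EV replicate 1 and 0.28 in SCML4 replicate 1, fatty acid genes under SREBP-1 also peak in SCML4 replicate 1 at 0.16, and all genes tested stay near 0.

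Genes next to the pathway were taken from lists by function. Of 12 fatty acid genes under SREBP-1, 9 were tested, 0 passed and 7 had positive differences (51.7% of all genes), with a median of 0.093, which was 0.091 without EV replicate 1, 0.038 without SCML4 replicate 1 and 0.16 without SCML4 replicate 3. SCML4 replicate 1 was the highest library in 6 of these 9, against 15.5% of all genes. FADS2, a fatty acid desaturase, had 164, 209 and 231 CPM in EV and 292, 238 and 214 CPM in SCML4, the same order of SCML4 libraries as in LSS. SCD, another desaturase, had 380, 466 and 469 CPM in EV and 572, 483 and 442 CPM in SCML4. ACLY, which supplies cytosolic acetyl-CoA, had 166, 176 and 184 CPM in EV and 207, 198 and 180 CPM in SCML4. In each of these 3 genes the groups overlapped through SCML4 replicate 3.

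The machinery that cleaves SREBP and degrades sterol-sensing proteins differed little. Of 14 such genes tested, 0 passed and 9 had positive differences (51.7% of all genes), with a median of 0.028. That median was 0.035 without EV replicate 1, and its sign turned without EV replicate 3 (-0.0069) and without SCML4 replicate 1 (-0.0016), each with 7 of 14 positive. It was 0.046 without EV replicate 2 and 0.070 without SCML4 replicate 3. ERLIN2, a scaffold of sterol-regulated protein degradation, had 60.2 CPM on average in EV and 66.5 in SCML4, without overlap of the groups. PAQR3, which holds SCAP at the Golgi, had a difference of -0.11 with overlapping groups.

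The branch to other isoprenoids had 3 of 13 differences positive (51.7% of all genes), 0 passed and a median of -0.058. Without EV replicate 1 it was -0.024 with 5 of 13 positive, and it was -0.031 without SCML4 replicate 3, -0.090 without SCML4 replicate 1 and -0.10 without EV replicate 3. RABGGTB, a subunit of the enzyme that prenylates Rab proteins, had 148, 132 and 124 CPM in EV and 121, 123 and 114 CPM in SCML4, without overlap (difference -0.17, adjusted p = 0.905). RABGGTA, its partner subunit, had a difference of 0.22 with overlapping groups, and PDSS1, of coenzyme Q synthesis, one of -0.16. Other genes of sterol transport, uptake, storage and oxidation had 6 of 23 positive (51.7% of all genes), 0 passed and a median of -0.026. It was -0.030 with 8 of 23 positive without EV replicate 1, and -0.0072 with 9 of 23 positive without SCML4 replicate 1. OSBPL2, a lipid transfer protein, had 58.9, 53.5 and 53.1 CPM in EV and 46.0, 50.4 and 50.5 CPM in SCML4. Its SCML4 libraries all lay below the EV libraries (difference -0.17, adjusted p = 0.905), whereas STARD3NL, a late endosome protein, had -0.13 with overlapping groups.

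Markers of T cells also differed between the libraries. Of 12, 11 had positive differences (51.7% of all genes) with a median of 0.13, 5 had SCML4 libraries all above EV libraries (6.02% of all genes), and 0 passed. EV replicate 1 was the lowest library in 7 of the 12, against 28% of all genes, and without it the median was 0.053 with 8 of 12 positive. Their summed level was 3316 to 3572 CPM in EV and 3648 to 3797 CPM in SCML4. CD3D had a difference of 0.15, CD3E of 0.16 and CD5 of 0.15. Unlike the synthesis genes, these markers were highest in SCML4 replicate 3 for 7 of the 12, against 20.4% of all genes. The summed level of the other cell types' markers was 24.2 to 35.9 CPM in EV and 32.8 to 36.1 CPM in SCML4, nearly all of it CD79A. The part of these markers in the results was not tested, and in bulk RNA a change in the mix of cells and a change of RNA per cell cannot be told apart.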

How the data were processed

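Per the labels' protocols, TRIzol RNA went into SMARTer mRNA-seq libraries. FastQC, STAR, SAMtools and the build hg19 are named, without versions, per the submitters' processing notes. How reads were counted, on which annotation and with which strand setting, is not given in the sources used here. FPKM were deposited by the authors: reads scaled by gene length and library total, with 1 column per library. Whole reads were recovered from the FPKM steps for all 23897 genes above 0, within a tolerance of 0.002 of a read (slightly wider for large counts), and gave the library totals and CPM. A count of 0 allows up to 3 reads, 0.29 to 0.335 CPM by library, for counting error only.

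Differences came from limma-trend (limma 3.58.1, R 4.3.3) on log2(FPKM + 1), where the mean FPKM reached 0.5, adjusted by Benjamini-Hochberg and called at 0.05. Differences of low genes are understated on this scale. The gene lengths implied by the FPKM did not follow those of the named genes (Spearman rho 0.00050 against the longest GENCODE transcript, 13345 genes), so levels are given as CPM. Ratios within a gene do not depend on the length, but the pseudocount and the filter do. Fits of the recovered reads needed a mean of 10 or more reads. GC content and overlapping genes came from GENCODE 29, and promoter sequences from RefSeq on GRCh38.p14. Fits and recovery were tested on simulated data. No libraries of the same group were duplicates: the chi-square per gene within groups was 2.53 to 10.2. Libraries of different groups were not compared in this way.

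Members and lists were chosen with earlier results of these data known. Values in every library are given for named regulators, efflux genes and 5 synthesis genes (HMGCS1, MVD, SQLE, LSS and DHCR7), for the 4 members of smallest unadjusted p in each role and for members whose groups do not overlap. Each other list contributes at most 3 names, those with the smallest unadjusted p. Some genes that this rule would name are not reported here. Alternatives covered pseudocounts, filters, scalings, variance models, read-based fits, GC correction, a replicate block and leaving out each library.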

Additional observations from a re-analysis of the deposited data

How the results depend on the processing

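The 0 calls over all genes became 7 without the filter, 4 without an intensity trend, 1 with library weights, 1 on log2(CPM + 1), 1 with limma-voom, 14 with limma-voom and library weights, 13 with limma-voom without EV replicate 1, and 3 with GC correction, which fits fewer genes. SCML4 was among the calls in each of these, and no member was. The count stayed 0 under the other pseudocounts, filters and scalings and with any library left out. The median of the regulators, 0.11, was 0.050 with library weights in either fit (0.0495 and 0.0498), 0.029 with limma-voom without EV replicate 1 and 0.025 with GC correction, and 0.027 to 0.15 with 1 library left out. The synthesis median was positive under all 21 alternatives, and 0.077 to 0.23 with 1 library left out. No alternative left out both EV replicate 1 and SCML4 replicate 1.

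No replicate block is given by the labels. Libraries of the same number correlated at -0.019, -0.047 and -0.0100 in their deviations, so no shared deviation was seen. These correlations cannot tell whether such libraries were cultured or prepared together, since libraries handled together need not share a deviation. With a replicate block 0 genes were called. The medians (0.18, 0.11 and 0.040) cannot change under a block in this balanced design, so they say nothing of stability.

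Of 687 differences of members under alternatives, 29 changed sign, and the cause was not tested. With library weights MSMO1 was -0.035 (-0.023 with limma-voom) and ABCA1 0.27. With limma-voom without EV replicate 1, MSMO1 was -0.037, NSDHL -0.025 and SREBF2 -0.042. With GC correction LBR was 0.0061, ABCG1 -0.0028 and NPC1 -0.0025, and with centring on the median NPC1 was -0.0021. With 1 library left out the range was -0.20 to 0.29 for HMGCS1, -0.032 to 0.22 for IDI1, -0.019 to 0.23 for SQLE, -0.16 to 0.17 for MSMO1, -0.029 to 0.35 for NSDHL, -0.041 to 0.19 for SREBF2, -0.25 to 0.039 for NR1H3, -0.070 to 0.55 for MYLIP, -0.34 to 0.33 for ABCA1, -0.024 to 0.13 for ABCG1, -0.030 to 0.11 for STARD4 and -0.10 to 0.12 for NPC1. ABCA1 and MYLIP are limited by depth, at under 20 reads in each library.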
